A study of Homo sapiens with 10 samples.

Results

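Intermediate filaments are the rope-like part of the cytoskeleton, and 8 of their genes are described here: the simple-epithelial keratins KRT7, KRT8, KRT18 and KRT19, vimentin (VIM), nestin (NES), and the nuclear lamins LMNA and LMNB1. They were chosen by symbol from the gene annotation deposited with the series and joined by gene identifier to the read counts of all 10 libraries. The 8 genes are 8 of 32152 genes in the count table, and each of them was among the 19163 genes with enough reads to be tested. The study sequenced polyadenylated RNA of WAe009-A, the registry name of the human embryonic stem cell line H9. It compared 5 libraries titled 57-KO, called KO here (KCNH2-/- in the culture description, KCNH2 knockdown in the genotype field) with 5 wild-type (WT) libraries. KCNH2 encodes the pore subunit of the hERG potassium channel. All cells grew on Matrigel, but WT cells grew in TeSR-E8 medium and KO cells in mTeSR Plus, so genotype and medium cannot be told apart in any difference below. The labels do not say whether the KO libraries come from 1 clone or whether the 5 libraries of a group are separate cultures. The p-values therefore measure the spread between these libraries only, which may be technical.

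Intermediate filament proteins share a central coiled-coil rod and pair side by side before they assemble into filaments. Simple keratins are obligate heteropolymers: a type II keratin such as KRT8 or KRT7 must pair with a type I keratin such as KRT18 or KRT19, and a keratin left without a partner is degraded. KRT8 and KRT18 are the first keratins of the embryo and are the main keratins of cultured human pluripotent cells. Vimentin forms filaments by itself and is known as the filament of mesenchymal cells, nestin co-assembles with vimentin and is known from neural progenitors, and both are also present in pluripotent cells grown as a monolayer. Lamins line the inside of the nuclear envelope. B-type lamins such as LMNB1 are made in nearly all cells, while the A-type lamins made from LMNA are known to be low in pluripotent cells and to increase with differentiation.

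The end of the rod is the stretch by which intermediate filament genes are recognised as 1 family, and it is shown here for 7 of the members to let the relations between the members be seen. Each line gives 30 coding bases from the GENCODE 29 transcript of the gene, 5′ to 3′, and capitals mark the 12 positions at which these 7 genes carry the same base.
KRT8: aCcTACaGgaagCTgcTgGAgGgcgaggAg
KRT7: aCcTACcGcaagCTgcTgGAgGgcgaggAg
KRT18: aCcTACcGccgcCTgcTgGAaGatggcgAg
KRT19: aCcTACcGcagcCTgcTcGAgGgacaggAa
VIM: aCcTACaGgaagCTgcTgGAaGgcgaggAg
NES: aCgTACaGgaccCTccTgGAgGctgagaAc
LMNB1: gCtTACaGgaaaCTctTaGAaGgcgaagAa
KRT8 and VIM matched at 29 of these 30 bases and KRT7 and KRT8 at 28, while KRT18 and LMNB1 matched at 15. Outside such short stretches the members differed. The longest run of identical bases shared by any 2 member transcripts was 41 bases, between KRT7 and KRT8, which is below the 150 cycles of sequencing.

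In the GRCh38 assembly, the type II genes KRT7 (chromosome 12, 52232520 to 52252186) and KRT8 (chromosome 12, 52897187 to 52949954, minus strand) lie in the type II keratin cluster. KRT18 (chromosome 12, 52948871 to 52952901, plus strand) is the type I gene that lies there too, head to head with KRT8. The annotated exons of KRT8 and KRT18 overlap over 525 bases on opposite strands. KRT19 is on chromosome 17 (41523617 to 41528308), VIM on chromosome 10 (17228259 to 17237593), and LMNB1 on chromosome 5 (126776623 to 126837020). LMNA (156082573 to 156140089) and NES (156668763 to 156677397) lie near each other on chromosome 1. The sources used here do not say whether the counting used strand. Reads from bases shared by overlapping genes could therefore have been assigned to either gene. This holds for KRT8 and KRT18, for VIM and its antisense RNA VIM-AS1 (641 exonic bases), and for KRT7 and KRT7-AS (282 bases). VIM also shared 619 exonic bases with the antisense gene AL133415.1, and KRT7 shared 32 with the pseudogene KRT87P. Counts of AL133415.1 and KRT87P are not given here. VIM-AS1 had 8 to 22 counts and KRT7-AS 0 to 14 counts in a library, against 1332 to 2769 for VIM and 147 to 435 for KRT7.

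Total counts were 29788732 to 40587206 in KO libraries and 28615751 to 47319933 in WT libraries. A floor of 3 counts then corresponded to 0.0634 to 0.105 counts per 1000000 counts of a library (CPM), far below the level of each of the 8 genes. KCNH2 itself read 11.2, 13.2, 13.2, 12.2 and 11.2 CPM in KO replicates 1 to 5 and 14.9, 16.1, 14.7, 16.4 and 15.4 in WT replicates 1 to 5. The groups did not overlap, and the log2 fold change was -0.35 (SE 0.06, adjusted p = 6.48e-04, edgeR quasi-likelihood test). Over all tested genes, the first principal component (44.8% of the variance) separated the groups. On the second (28.3%), KO 3 (-59.1) and WT 3 (-32.2) lay apart from the other libraries. WT 2 (-10.1) lay below WT 1, WT 4 and WT 5 (24.96 to 35.8) and beside KO 4 and KO 5 (-2.26 and -2.04). Each of the 12 pluripotency genes listed for a check of the cell type was tested, and POU5F1, the factor OCT4, averaged 3214 CPM in KO and 2617 CPM in WT libraries. PAX6 and SOX1 of neural progenitors, and CDX2 and GATA3 of trophoblast, named here as genes at low level, stayed at or below 0.251 CPM in every library. Other genes of their lists were higher. TUBB3 averaged 73.4 CPM in KO and 87.9 CPM in WT libraries, and GABRP of amnion 6.62 and 22.7 CPM. Under 1 CPM on average in both groups were 9 of 14 neural genes and 8 of 11 trophoblast and amnion genes in the count table.

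Among the 8 genes, 4 were higher in KO than in WT libraries (KRT8, KRT18, VIM and LMNA), 1 was lower (KRT7), and KRT19, NES and LMNB1 did not pass the test. In the whole transcriptome 21.9% of tested genes were called higher and 24.1% lower, 46% in all, so 5 called of 8 is close to what was found across genes. The median log2 fold change of the 8 was 0.11, against 0.0018 over all tested genes. VIM, KRT8 and KRT7 had groups that did not overlap, 3 of 8, against 34% of all tested genes. The largest change of a member was that of KRT7 at -0.63 on the log2 scale, and the next was that of VIM at 0.54. The authors' deposited table, which marks calls by a rule of its own, gives NO for all 8 genes. Its log2 fold changes are -0.53 for KRT7, 0.19 for KRT8 and for KRT18, 0.53 for VIM and 0.28 for LMNA. Its adjusted p-values (DESeq2 in the submitters' notes) are 4.8e-04, 1.1e-04, 0.0046, 8.2e-13 and 0.0053 in that order, each under 0.05. For KRT19, NES and LMNB1 they are 0.496, 0.904 and 0.742.

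**Figure D1:**
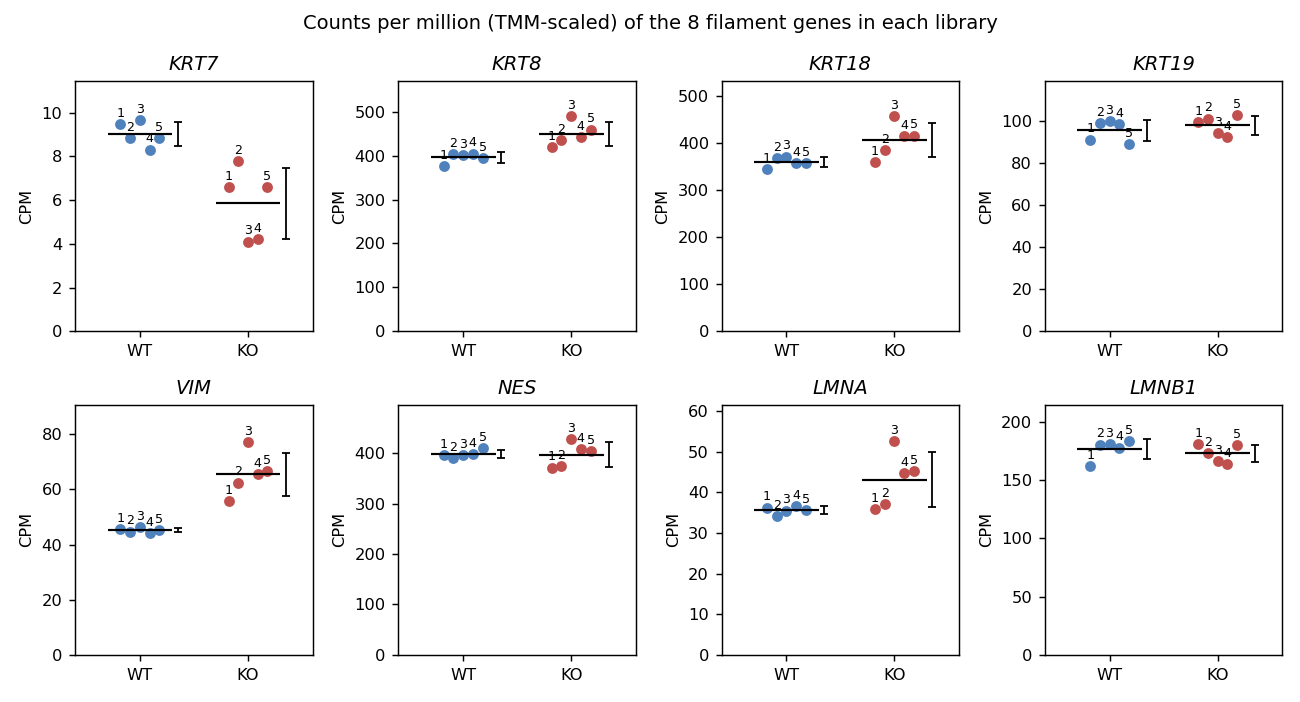
CPM of each of the 8 genes in the 5 WT and 5 KO libraries, 1 numbered point a library, with a line at the group mean and the SD beside it; CPM are scaled by TMM, as in the text. VIM and KRT8 are higher in all 5 KO libraries than in any WT library and KRT7 is lower, while KRT19, NES and LMNB1 overlap.

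KRT8, the main type II keratin, was 13.5% higher in KO libraries. It read 419.9, 436, 490.2, 443 and 459.7 CPM in KO replicates 1 to 5 and 377, 404, 401, 405 and 394 CPM in WT replicates 1 to 5. Every KO library lay above every WT library, with KO 3 the highest. The means were 449.7 ± 26.8 and 396 ± 11.6 CPM (SD, n = 5 each), and the log2 fold change was 0.18 (SE 0.04, adjusted p = 0.00271, edgeR). KRT18, its type I partner, had nearly the same log2 fold change. It read 359, 385, 457, 415 and 415 CPM in KO and 344, 368, 371, 356 and 357 CPM in WT replicates. In 4 of 5 KO libraries KRT18 exceeded the highest WT library, and KO 1 fell inside the WT range. Its log2 fold change was 0.18 (SE 0.05, adjusted p = 0.0184, edgeR). KRT18 is a short mRNA, of 1562 bases, and protein-coding genes of 1000 to 2000 bases at 5 CPM or more had a median log2 fold change of 0.14 (quartiles 0.02 and 0.27, 2047 genes). When each library was corrected for transcript length and GC content, the KRT18 change was 0.09 and no longer passed (adjusted p = 0.193, against 0.00261 to 0.193 over all 21 other settings). KRT8 stayed at 0.15 in that fit, with an adjusted p of 0.00506.

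The proportion of the 2 partners did not differ beyond the spread between libraries. The ratio of KRT8 to KRT18 counts was 1.17, 1.13, 1.07, 1.07 and 1.11 in KO replicates 1 to 5. In WT replicates 1 to 5 it was 1.10, 1.10, 1.08, 1.14 and 1.10, within the KO range. On the log2 scale the mean ratio differed by 0.01 between the groups (exact permutation test, two-sided, p = 0.778, adjusted over 3 ratios 0.778). The difference was smaller than the spread within KO libraries (SD 0.06). Without KO 1, the library with the highest ratio, it was -0.01.

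KRT8 and KRT18 each have a large family of processed pseudogenes, mRNA copies pasted back into the genome, and reads can be shared between a gene and its copies. The count table held 36 genes named as KRT8 pseudogenes and 32 named as KRT18 pseudogenes. Aligned to the parent transcript they were 75.2% to 97.1% identical for KRT8 (median 90.2%) and 83.8% to 95.2% for KRT18 (median 91.2%). The longest identical run was 133 bases for KRT8 and 97 bases for KRT18, both shorter than a read.

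Copies took a small and uneven part of the keratin reads. KRT8 pseudogenes held 6.52%, 5.36%, 3.01%, 5.66% and 5.29% of the counts of KRT8 and its copies in KO replicates 1 to 5. In WT replicates 1 to 5 they held 5.48%, 3.71%, 2.68%, 5.94% and 5.07%. KRT18 pseudogenes held 1.72%, 1.75%, 0.673%, 1.67% and 1.38% in KO and 1.73%, 0.669%, 0.548%, 2.23% and 1.71% in WT libraries. Both shares were lowest in KO 3, WT 2 and WT 3, which held the 3 lowest scores on the second component over all genes. KRT8P10 followed this pattern on the CPM scale, with 2.98 CPM in KO 3, 3.45 in WT 2 and 1.53 in WT 3 against 5.07 to 7.93 CPM in the other 7 libraries. KRT8P12 did not, with 5.91 CPM in KO 3, 5.46 in WT 2 and 4.87 in WT 3 against 4.28 to 5.91 CPM in the others. When the counts of the copies were added to their parents, the log2 fold changes were 0.19 for KRT8 (adjusted p = 7.4e-04, edgeR) and 0.18 for KRT18 (adjusted p = 0.014), so the split of reads did not move either call.

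**Figure D2:**
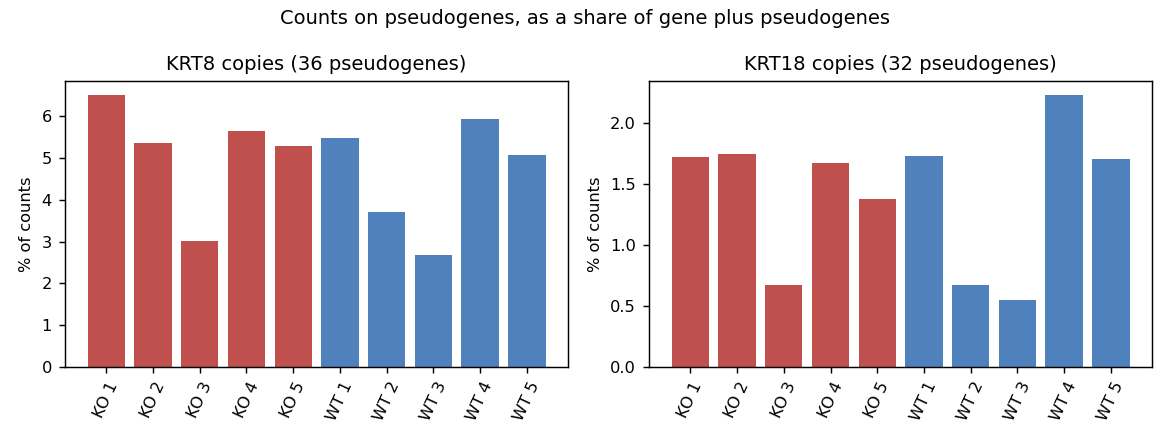
Counts on pseudogenes as a percentage of the counts of the parent gene and its pseudogenes, for KRT8 (36 pseudogenes, left) and KRT18 (32 pseudogenes, right), 1 bar a library. The bars of KO 3, WT 2 and WT 3 are the 3 lowest in both panels.

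KRT19, the type I keratin without a tail domain, did not pass the test. It read 99.5, 101, 94.1, 92.2 and 103 CPM in KO and 91.1, 98.8, 100.03, 98.6 and 88.9 CPM in WT replicates 1 to 5. The groups overlapped through most of their range, and the log2 fold change was 0.04 (SE 0.04, adjusted p = 0.518, edgeR). Its sign turned with the correction for length and GC content (-0.08 with transcript length and -0.07 with all exons of the gene), and it passed in none of the 21 other settings. KRT19 did not share the KO order of KRT8 and KRT18: KO 3, the highest library for both, was the second lowest for KRT19.

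KRT7, a type II keratin of ducts, trophoblast and amnion, was the only member that fell. It read 6.59, 7.79, 4.10, 4.20 and 6.61 CPM in KO and 9.46, 8.85, 9.68, 8.31 and 8.85 CPM in WT replicates 1 to 5. Every KO library was below every WT library, and KO 3 and KO 4 were the lowest. The means were 5.86 ± 1.63 and 9.03 ± 0.55 CPM, a log2 fold change of -0.63 (SE 0.16, adjusted p = 0.00752, edgeR). Of 14 trophoblast and amnion genes listed beside it, 11 were in the count table and 3 had enough reads to test. GABRP, a GABA receptor subunit of amnion, fell from 22.7 ± 2.44 to 6.62 ± 0.42 CPM. IGFBP3 and PGF rose by 0.78 and 0.40 on the log2 scale, from 2.50 to 4.32 CPM and from 3.68 to 4.84 CPM. The summed level of the 11 genes was 15.5 to 18.03 CPM in KO and 26.4 to 32.9 CPM in WT libraries. GABRP made up most of the WT sum and was the only tested gene of the list that fell. CDX2, GATA3, TFAP2A and ISL1 were at 0.251 CPM or below. The part of such cells in the KRT7 difference was not tested. In bulk RNA, fewer cells of a kind and less RNA per cell cannot be told apart.

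VIM rose in every KO library. It read 55.8, 62.5, 77.2, 65.5 and 66.6 CPM in KO and 45.5, 44.7, 46.2, 44.3 and 45.3 CPM in WT replicates 1 to 5. The lowest KO library, KO 1, was still above the highest WT library, WT 3. The means were 65.5 ± 7.77 and 45.2 ± 0.75 CPM, 45% higher in KO, with a log2 fold change of 0.54 (SE 0.07, adjusted p = 6.28e-05, edgeR). Over the 21 other settings the change lay between 0.47 and 0.60 and passed in each. VIM also rose relative to the main keratin: there were 0.156 to 0.169 VIM counts for each KRT18 count in KO libraries and 0.121 to 0.132 in WT libraries, with no overlap. This ratio was 1.28-fold higher in KO libraries (exact permutation test, two-sided, p = 0.00794, the smallest that 5 against 5 libraries allow, adjusted over 3 ratios 0.0238).

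Of 19 mesenchyme and fibroblast genes, 17 were in the table and 13 were tested, of which 3 rose and 6 fell. That is 23.1% higher and 46.2% lower, against 21.9% and 24.1% of all tested genes. The list's median change was -0.09 on the log2 scale. The fibrillar collagens COL1A1 and COL1A2 fell by 0.52 and 0.74 on the log2 scale, and SPARC, a collagen-binding matrix protein, fell by 0.27. SNAI1, a repressor of the epithelial cadherin gene CDH1, rose by 0.35. TAGLN, an actin-binding protein of smooth muscle, rose from 152 ± 10.1 to 383 ± 167 CPM. TAGLN read 199.6, 256, 616, 471 and 371 CPM in KO replicates 1 to 5, so KO 3 was again the highest and KO 1 the lowest, and 144 to 169 CPM in WT. The summed level of the list was 868 to 1335 CPM in KO and 990.1 to 1034 CPM in WT libraries. The part of these genes' cells in the VIM difference was not tested.

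NES did not pass the test. It read 371, 374, 428, 408 and 403 CPM in KO and 396, 390.1, 396, 398 and 409.8 CPM in WT replicates 1 to 5. KO 1 and KO 2 lay below every WT library and KO 3 above every one, so the KO libraries surrounded the WT range. The means were 397 ± 24.2 and 398 ± 7.21 CPM, and the log2 fold change was -0.004 (SE 0.04, adjusted p = 0.943, edgeR). NES is a long mRNA, of 5558 bases, and protein-coding genes of 5000 to 6000 bases had a median log2 fold change of -0.07 (963 genes). With the correction for transcript length and GC content NES was higher in KO by 0.13 (adjusted p = 0.0141), with all exons as the length by 0.05 (adjusted p = 0.356), and over all 21 settings the adjusted p ran from 0.0141 to 0.965. Of 14 neural genes, 5 were tested and all 5 of them fell, among them MSI1 (-0.49), MAP2 (-0.69) and DCX (-0.68). Of all tested genes, 24.1% were called lower. The summed level of the neural list was 123 to 143 CPM in KO and 163 to 183 CPM in WT libraries. FABP7 of that list (-0.31) lost its call in 9 of the 21 other settings, among them those without KO 3, KO 4, WT 2, WT 3 or WT 4.

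Of the lamin genes, LMNA rose and LMNB1 did not pass the test. LMNA read 36.0, 37.1, 52.6, 44.7 and 45.2 CPM in KO and 36.2, 34.1, 35.5, 36.5 and 35.7 CPM in WT replicates 1 to 5. KO 3, KO 4 and KO 5 were well above WT, KO 2 exceeded the highest WT library by less than 1 CPM, and KO 1 lay inside the WT range. The means were 43.1 ± 6.78 and 35.6 ± 0.93 CPM, and the log2 fold change was 0.28 (SE 0.09, adjusted p = 0.0226, edgeR). The call was lost without KO 3, WT 2 and WT 3 (0.17, adjusted p = 0.0957), without both replicate 3 libraries (0.20, adjusted p = 0.0523), without KO 5 (adjusted p = 0.0532) and without WT 2 (adjusted p = 0.0529). Over the 21 settings the adjusted p ran from 0.00494 to 0.0957.

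LMNB1 read 181, 173, 166, 164 and 179.6 CPM in KO and 162, 180.4, 181, 178 and 183 CPM in WT replicates 1 to 5. No KO library left the WT range, but the lower end of that range was WT 1 alone, at 162 CPM. KO 2, KO 3 and KO 4, at 173, 166 and 164 CPM, lay below every other WT library. The log2 fold change of LMNB1 was -0.03 (SE 0.04, adjusted p = 0.511, edgeR). The number of LMNA counts for each LMNB1 count was 0.199 to 0.316 in KO and 0.189 to 0.224 in WT libraries. This A-type to B-type ratio was 1.23-fold higher in KO, a difference that did not pass (exact permutation test, two-sided, p = 0.0556, adjusted over 3 ratios 0.0833). Without KO 1, the KO library with the lowest ratio, the log2 difference was 0.37 and the p 0.0159, and without KO 2 it was 0.35 with a p of 0.0317, neither adjusted over the ratios. Without KO 3 it was 0.21 (p = 0.0873, exact permutation test) and without both replicate 3 libraries 0.20 (p = 0.171). Without any other single library the p lay between 0.0556 and 0.111. The third lamin gene, LMNB2, another B-type lamin, averaged 406 ± 4.46 CPM in KO and 423 ± 16.5 CPM in WT and did not pass (log2 fold change -0.06, adjusted p = 0.132). Without WT 1 LMNB2 passed as lower (adjusted p = 0.0109), and with transcript length and GC corrected its sign turned (0.05), the adjusted p running from 0.0109 to 0.814 over the settings.

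**Figure D3:**
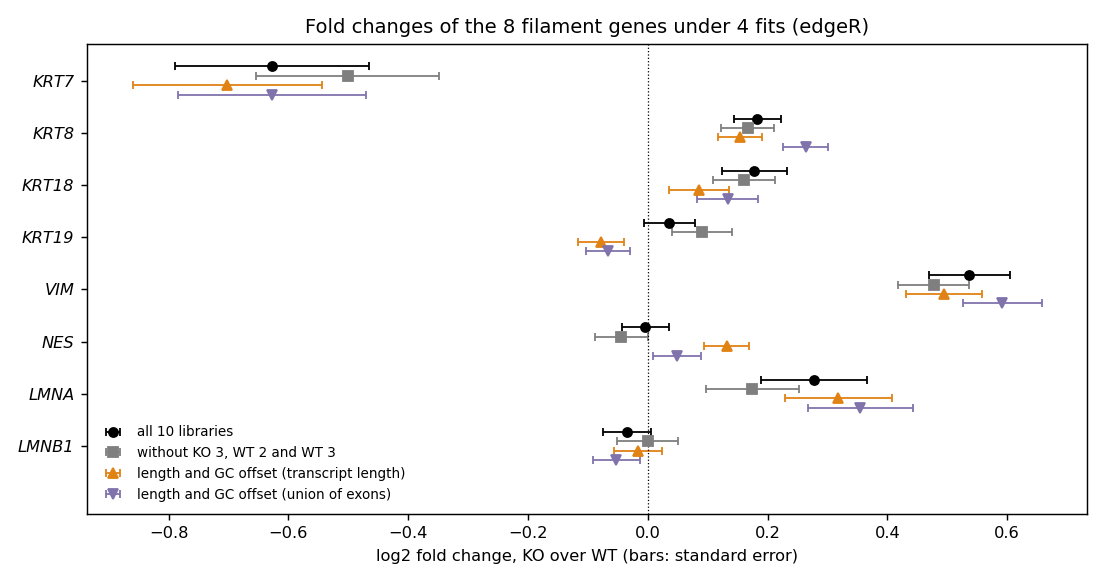
Log2 fold change of each of the 8 genes, KO over WT, with its standard error, in the edgeR fit of all 10 libraries, the fit without KO 3, WT 2 and WT 3, and 2 fits corrected for length and GC content. VIM and KRT7 stay far from 0 in all 4 fits, KRT18 is nearest to 0 with transcript length corrected and LMNA without the 3 libraries, and KRT19 and NES lie on both sides of 0.

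Levels can be compared between genes per kilobase of transcript, taking 1 principal transcript for each gene. On that scale KRT18 was the highest in KO libraries at 260.1 CPM per kilobase and in WT libraries at 230.0, followed by KRT8 at 212 in KO and 186 in WT. NES (71.4 and 71.6), KRT19 (70.5 and 68.7) and LMNB1 (60.0 and 61.5) formed a middle group. VIM came next at 35.1 in KO and 24.2 in WT, then LMNA at 13.5 and 11.2, and KRT7 was the lowest at 3.34 and 5.15 CPM per kilobase. The order was the same in both groups. The libraries' values overlapped between NES and KRT19 in both groups, and between KRT18 and KRT8 in KO only, and no other neighbours overlapped. Other lengths changed the order within the upper and middle ranks: per kilobase of coding sequence KRT18 and KRT8 overlapped in both groups and LMNB1 ranked above NES and KRT19, and per kilobase of all exons NES ranked above KRT8. VIM, LMNA and KRT7 were the lowest 3, in that order, on all 3 lengths.

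Among the 6 cytoplasmic filament genes, the share of the summed level per kilobase that VIM held was 5.37% ± 0.29 in KO and 4.13% ± 0.13 in WT libraries, with no overlap. KRT18 held 39.8% and 39.2%, KRT8 32.5% and 31.8%, KRT19 10.9% and 11.7%, NES 10.96% and 12.2%, and KRT7 0.519% and 0.879%. The shares of NES (10.7% to 11.3% in KO, 11.8% to 12.7% in WT) and of KRT7 (at most 0.706% in KO, at least 0.804% in WT) did not overlap either, and both were lower in KO. A share depends on the other genes, and the NES level itself was 397 CPM in KO and 398 CPM in WT. With transcript length and GC corrected, the log2 fold change of NES was 0.13, higher in KO. In both groups KRT8 and KRT18 together made up most of the cytoplasmic filament mRNA on this scale.

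**Figure D4:**
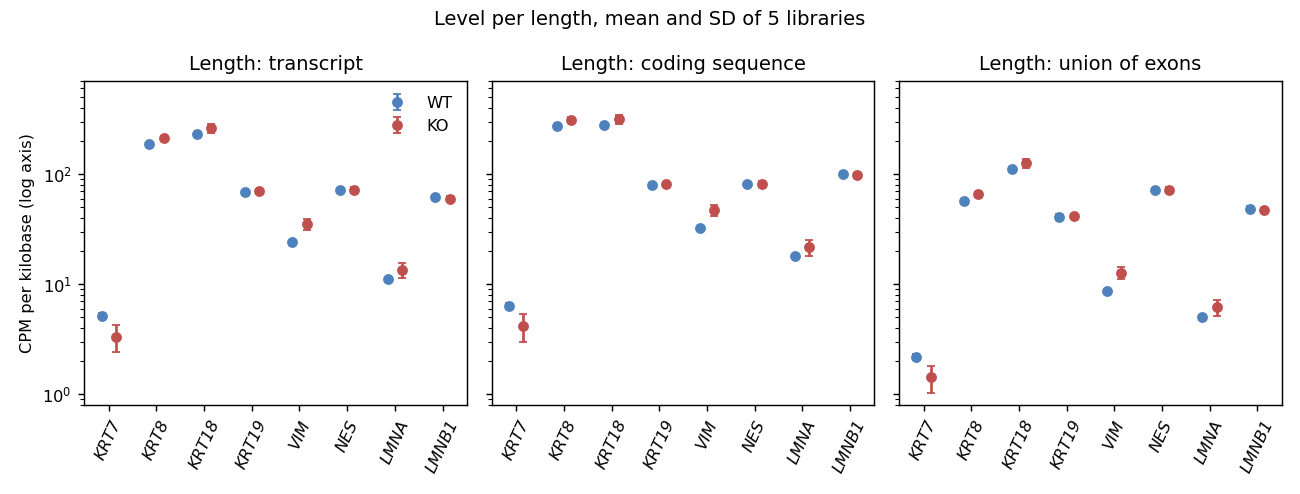
Mean level and SD of the 8 genes in CPM per kilobase (log axis) in 5 WT and 5 KO libraries, with 3 definitions of gene length. KRT18 is the highest and VIM, LMNA and KRT7 are the lowest in every panel.

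The KO libraries varied more than the WT libraries, and they did so together. The SD of log2 CPM was larger in KO than in WT by 7.03 times for VIM, 5.91 for LMNA, 4.80 for KRT7, 3.38 for NES, 2.98 for KRT18 and 1.97 for KRT8. For KRT19 and LMNB1 this ratio was 0.869 and 0.894. Over all tested genes its median was 1.25 (quartiles 0.841 and 1.93), with a ratio above 1 in 64.4% of genes. The coefficient of variation of VIM was 11.8% in KO and 1.67% in WT libraries. KRT8, KRT18, VIM and LMNA ordered the KO libraries identically, from KO 3 through KO 5, KO 4 and KO 2 down to KO 1, and NES differed from them only in the order of KO 4 and KO 5. KRT7 had KO 3 as its lowest library.

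After each group's mean was removed, the log2 CPM of NES and LMNA correlated with r = 0.962 over the 10 libraries, KRT18 and VIM with 0.931, KRT8 and KRT18 with 0.927, and VIM and LMNA with 0.923, while KRT7 and NES gave -0.794. These values are descriptions over libraries that share depth and composition, among which KO 3 weighs heavily. On the same measure, the genes most like each member were searched among 9322 genes of at least 10 CPM. LMNA was closest to TNFRSF12A, the receptor of TWEAK (r = 0.987), TIMM44 (0.984) and the annexin ANXA5 (0.984). NES was closest to COTL1, an actin-binding protein (0.989), FOXO3 (0.977) and ESYT2 (0.974), and VIM to ITPRIP (0.976), ASS1 (0.971) and CDK7 (0.970). KRT8 was closest to PSMD3 (0.985), ZC3H18 (0.960) and ANXA7 (0.960), and KRT18 to TRAF4 (0.981), the glycolytic enzyme ALDOA (0.977) and CIAO1 (0.974). KRT7 was closest to WIPF3, MTM1 and HSD11B2 (0.967 to 0.970). The nearest genes of KRT19 were DBP, OFD1 and MAN1C1 (0.917 to 0.937) and those of LMNB1 were ZNF423, TRAK2 and ZNF544 (0.914 to 0.941).

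The rest of the intermediate filament family was mostly untested for lack of reads or did not pass the test. Of 24 other type II keratins, 6 were in the count table and none had enough reads to test, KRT86 being the highest at a mean of 0.145 CPM in WT. KRT5 and KRT14, the pair of basal stratified epithelium, were at 0 in 7 and 8 of the 10 libraries. Of 27 other type I keratins, 9 were in the table and 2 were tested, and both rose. Of all tested genes 21.9% were called higher, and 2 genes are too few to compare with that share. KRT10, known from the upper epidermis, rose from 21.4 ± 1.30 to 24.6 ± 1.40 CPM (log2 fold change 0.20, adjusted p = 0.00769, edgeR). KRT10 did not pass without KO 3, WT 2 and WT 3 (adjusted p = 0.0817) or with all exons as the length (adjusted p = 0.0993), the range over the settings being 0.00131 to 0.0993. KRT17, a keratin of basal and stressed epithelium, was at 0.418 ± 0.143 CPM in KO and 0.171 ± 0.095 CPM in WT, and its call was lost without KO 4 (adjusted p = 0.0583, range 0.0165 to 0.0583).

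Of 14 other non-keratin filament genes, 12 could be tested, of which 3 rose and 1 fell. Their median change was 0.06 on the log2 scale. Among all tested genes 21.9% were called higher and 24.1% lower, so 3 higher of 12 is close to what was found across genes. SYNC, syncoilin, a desmin-binding filament protein of muscle, showed the largest change of the family. It read 8.97, 4.87, 5.27, 6.55 and 14.0 CPM in KO and 0, 1.32, 0.712, 0 and 0.578 CPM in WT replicates 1 to 5, so even the lowest KO library was above every WT library (log2 fold change 3.84, SE 0.65, adjusted p = 5.14e-04, edgeR). The neurofilament genes NEFH and NEFL rose by 0.42 and 0.27, from 4.60 to 6.14 CPM and from 11.2 to 13.5 CPM. BFSP1, a beaded filament gene of the lens, fell by 0.35. DES, the muscle filament desmin, had a log2 fold change of 0.45 that did not pass (adjusted p = 0.0625) and passed without KO 1 (0.0187) or without KO 2 (0.0482), in a range of 0.0187 to 0.250. NEFM, INA, IFFO1, IFFO2 and SYNM had log2 fold changes between -0.11 and 0.10 and did not pass. With transcript length and GC corrected IFFO2 (0.26, adjusted p = 0.00329) and NEFM (0.17, adjusted p = 0.0326) passed as higher. IFFO2 also passed with all exons as the length (adjusted p = 0.0338) and without KO 1 (0.0247), and SYNM passed as lower without KO 3 (-0.16, adjusted p = 0.0373). Over the settings the adjusted p ran from 0.00329 to 0.575 for IFFO2, 0.0326 to 0.632 for NEFM and 0.0373 to 0.967 for SYNM.

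Genes for proteins that tie the filaments to junctions and to other parts of the cytoskeleton mostly fell in the fit without length correction. Of 17 linker and desmosome genes, 15 were tested, and 10 fell and 1 rose, 66.7% lower against 24.1% of all tested genes. Their median change was -0.28 on the log2 scale, against 0.0018. DSP, desmoplakin, which anchors keratins at the desmosome, read 145, 142, 140.0, 136 and 134 CPM in KO and 169, 178, 189, 175 and 184 CPM in WT replicates 1 to 5. Its groups lay well apart, with a log2 fold change of -0.36 (SE 0.03, adjusted p = 8.21e-06, edgeR). PLEC, plectin, which links keratin and vimentin filaments to hemidesmosomes and to actin, fell from 223 ± 6.43 to 184 ± 4.34 CPM (-0.28). Of the desmosomal cadherins, DSC2 fell by 0.52 and DSC3 fell by 0.77, and the plakophilin PKP3 rose by 0.59. Several of these are long mRNAs, and the share over all tested genes was not matched for length. With transcript length and GC corrected, 6 of the 15 were called lower and 2 higher, where 4154 of all 19163 tested genes were called lower and 4432 higher. With all exons as the length 7 were lower and 1 higher, against 4283 and 4565 of all tested genes. PLEC lost its call with transcript length (-0.03, adjusted p = 0.413, the highest over the settings, the lowest being 6.12e-19). DSP, DSC2 and DSC3 passed as lower in all 21 settings. The summed level of the list was 1565 to 1685 CPM in KO and 1826 to 2015 CPM in WT libraries, without overlap.

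Of 23 genes of the nuclear envelope and of lamin processing, 22 were tested, and 8 rose and 6 fell (median 0.04). That is 36.4% higher and 27.3% lower, against 21.9% and 24.1% of all tested genes. BANF1, which bridges chromatin to the envelope, read 287, 304, 342, 315 and 344 CPM in KO and 236, 241, 249, 248 and 227 CPM in WT replicates 1 to 5, with no overlap (log2 fold change 0.41, SE 0.05, adjusted p = 5.13e-05, edgeR). EMD, emerin, a lamin-binding protein of the inner membrane, rose from 57.3 ± 2.11 to 70.05 ± 3.67 CPM. Among the nesprins, which connect the outer nuclear membrane to the cytoskeleton, SYNE1 and SYNE4 rose by 0.80 and 0.30, and SYNE2 fell from 130 ± 10.9 to 98.2 ± 3.603 CPM (-0.40). These 5 genes were named for the smallest p of the list, and their calls held in all 21 settings. Over those settings the number of the list called higher ran from 6 to 9 and the number lower from 4 to 7.

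Genes of simple epithelium, the tissue in which KRT8 and KRT18 are best known, moved both ways. Of 17 such genes, each of them tested, 6 rose and 3 fell, and the middle of their log2 fold changes was -0.006. That is 35.3% higher and 17.6% lower, against 21.9% and 24.1% of all tested genes. With transcript length and GC corrected 2 were higher and 4 lower, where 4432 of all 19163 tested genes were called higher and 4154 lower. With all exons as the length 3 were higher and 5 lower, against 4565 and 4283 of all tested genes. Without KO 3, WT 2 and WT 3 there were 3 higher. Without KO 5, without WT 1 or without WT 5 the number higher was 2. EPCAM rose from 237 ± 5.23 to 278 ± 6.92 CPM, while the cadherin CDH1 fell from 199 ± 7.22 to 166 ± 8.52 CPM and the membrane protease ST14 fell from 74.05 ± 2.52 to 45.2 ± 4.35 CPM. The summed level of the list was 2196 to 2290 CPM in KO and 2115 to 2225 CPM in WT libraries. Among the 12 pluripotency genes 7 rose and the other 5 did not pass, 58.3% higher against 21.9% of all tested genes. POU5F1 rose by 0.30 and NANOG by 0.28. Their list had a summed level of 7387 to 7813 CPM in KO and 6452 to 6790 CPM in WT. Of 10 primitive streak and endoderm genes 9 were in the table and 3 were tested. FOXA2 fell from 3.73 ± 1.04 to 0.400 ± 0.150 CPM, CER1 rose by 0.91 and lost its call without both replicate 3 libraries (adjusted p = 0.0814, range 0.00317 to 0.0967), and MIXL1 did not pass. The list sums were 3.02 to 5.13 CPM in KO and 5.44 to 7.76 CPM in WT libraries.

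**Figure D5:**
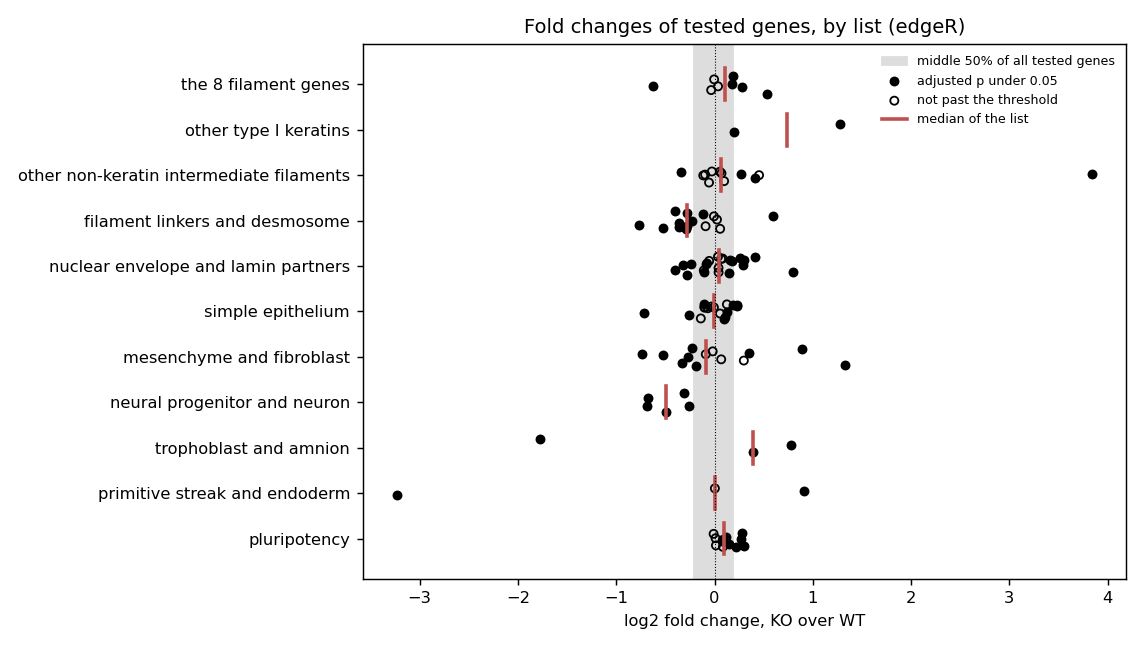
Log2 fold changes, KO over WT, of the tested genes in the lists of filament genes, their partners and cell type markers, 1 point a gene. The linker and desmosome genes lie mostly below 0 (10 lower, 1 higher), and the lists of simple epithelium and mesenchyme lie on both sides.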

How the data were processed

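RNA from 10 libraries (5 KO, 5 WT) was read with 150 paired-end cycles, per the labels' protocols. The authors deposited whole-number counts per gene, and a table of a KO against WT comparison with a mean normalized signal (baseMean), log2 fold changes with standard errors, a test score, and p-values. DESeq2, R 3.6.3 and hg38 are named in the submitters' processing notes; the sources used here name no aligner, counter or strand setting.

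Counts were normalized by TMM and tested with edgeR 4.0.16 (quasi-likelihood test, filterByExpr, Benjamini-Hochberg adjustment over 19163 genes, threshold 0.05). Count ratios were compared by exact permutation tests. The alternatives used DESeq2 1.42.0, limma 3.58.1 (voom), other filters, length and GC offsets, a replicate block, and left-out libraries. Gene positions and sequences came from GENCODE 29 (GRCh38), and pseudogenes were aligned with BLAST+ 2.17.0. Levels per kilobase used 1 transcript a gene. The scripts were tested on simulated data. No 2 libraries agreed within sampling noise (chi-square per degree of freedom 3.59 to 26.2).

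The members and lists were chosen with earlier results of these data known. Genes named were KCNH2, the members, other filament genes of 5 CPM or more in either group, up to 5 genes of smallest p in each other list, members' pseudogenes, and the 3 genes most correlated with each member. KRT86, KRT5, KRT14, PAX6, SOX1, CDX2, GATA3, TFAP2A and ISL1 were named outside that rule, as genes at low level. VIM-AS1, AL133415.1, KRT7-AS and KRT87P were named because they overlap a member. Some sequences are not reported here.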

Additional observations from a re-analysis of the deposited data

Results flagged for a closer look

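LMNB1 in WT replicate 1 stood apart from the other WT libraries: it read 162.1 CPM, while the other 4 read 178 to 183 CPM, and the gap was 0.733 of the whole range of the group. This was the only such library among 22 groups of 5 libraries examined, and chance gives about 1 in 20. Without WT 1, as without any other single library, LMNB1 did not pass the test.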

How the results depend on the processing

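Of the 8 genes, KRT7, KRT8 and VIM kept their direction and call in all 21 other settings, and LMNB1 stayed uncalled and below 0. KRT18 lost its call with transcript length and GC corrected (0.085, adjusted p = 0.193). KRT19 turned sign in the 2 length corrections (-0.078 with transcript length, -0.067 with all exons). NES turned sign with DESeq2 size factors (0.0066), the DESeq2 Wald test (0.0068), transcript length (0.13, called higher) and all exons (0.048). LMNA lost its call in 4 settings: without both replicate 3 libraries (0.195), without KO 3, WT 2 and WT 3 (0.174), without KO 5 (0.261) and without WT 2 (0.261). Leaving out 1 library at a time, the log2 fold changes ran from -0.75 to -0.52 for KRT7, 0.15 to 0.22 for KRT8, 0.13 to 0.23 for KRT18, 0.01 to 0.06 for KRT19, 0.47 to 0.60 for VIM, -0.032 to 0.032 for NES, 0.20 to 0.35 for LMNA and -0.06 to -0.01 for LMNB1. The log2 ratio differences ran from -0.011 to 0.022 for KRT8 to KRT18, 0.21 to 0.37 for LMNA to LMNB1 and 0.34 to 0.37 for VIM to KRT18, and 3 or 4 members were called higher. The cause of these changes was not tested.

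Same-numbered libraries did not deviate together in every pair (correlations -0.157 to 0.698, the highest for KO 3 with WT 3). The labels do not say whether the numbers pair the samples, and these correlations cannot decide it. With the replicate number as a block the log2 fold changes were -0.66 for KRT7, 0.18 for KRT8, 0.17 for KRT18, 0.53 for VIM and 0.26 for LMNA, and no member's call changed.

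List counts that moved over 1.5 times were few. Other type I keratins called higher went from 2 to 1 (1 CPM filter, all exons, without KO 3, WT 2 and WT 3, or without KO 4), and 1 was called lower with no filter. Other non-keratin filaments higher went from 3 to 5 (transcript length, or without KO 1) and lower from 1 to 2 (without KO 3 or WT 1). Linkers went to 2 higher and 6 lower with transcript length. Simple epithelium higher went from 6 to 3 (all exons, or without KO 3, WT 2 and WT 3) or 2 (transcript length, or without KO 5, WT 1 or WT 5), and lower from 3 to 5 with all exons. The streak gene called higher was lost with voom, without both replicate 3 libraries, without KO 3, WT 2 and WT 3, and with all exons, and 1 pluripotency gene was called lower with all exons. IFFO1 turned sign with all exons (0.012) and ran from -0.062 to 0.021 without single libraries, LMNB2 (0.047) and SYNM (0.073) with transcript length. MIXL1, near 0, turned sign with the 1 CPM filter (-0.00017), the block (-0.016), without KO 3, WT 2 and WT 3 (-0.028), and with transcript length (-0.023) or all exons (-0.10), and ran from -0.093 to 0.12 without single libraries. The corrections with all exons and the coding length per kilobase were chosen after seeing the data. Counts limit KRT7 (147 to 435 reads a library) more than the other members.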
